A study of Mus musculus with 16 samples.

Results

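Neurotrimin (Ntm) and 9 further neural adhesion proteins with immunoglobulin domains were followed through cocultures of sympathetic ganglia and fibroblasts. The 10 genes were Ntm, Opcml, Lsamp and Negr1 of the IgLON family, Ncam1 and Ncam2, the L1 family members L1cam and Chl1, and the contactins Cntn1 and Cntn2. They were taken by symbol from the 21684 protein-coding genes in the tables. All 10 were present both in the table of ganglion libraries and in that of pancreatic stellate cell (PSC) libraries. Ntm was chosen by its higher counts in ganglia cultured with either fibroblast line, so its values in ganglia are given below as a description and without a test. The other 9 genes were taken as its relatives and functional neighbours, and they were tested within fits across the whole table.

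The ganglia were superior cervical ganglia (SCG), the sympathetic ganglia of the neck, from C57BL/6J pups between postnatal days 1 and 4. Each well held 8 to 13 explants, cultured alone (SCG, n = 3) or beneath an insert for about 70 hours. The insert carried 10000 cells of either NIH 3T3, an embryonic mouse fibroblast line (SCG+MEF, n = 3), or mPSC1, an immortalized line of mouse pancreatic stellate cells (SCG+PSC, n = 4). The mPSC1 cells were sequenced after culture alone (PSC, n = 3) and after culture with ganglia (PSC+SCG, n = 3), and the NIH 3T3 cells were not analysed here. Explants and insert cells shared medium and did not touch, and each fibroblast type was represented by a single line. Replicates 1 to 3 of SCG+PSC entered the comparisons, and replicate 4 is given beside them. Nothing in the labels says that same-group libraries came from separate litters, so the p-values measure the spread between these libraries, which may in part be technical.

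Immunoglobulin adhesion proteins sit on the surface of neurons and glia and bind each other across or along membranes. IgLONs are small proteins held to the membrane by a glycolipid anchor, and they pair with themselves and with other IgLONs to tune neurite outgrowth and synapse formation. NCAM and L1 proteins span the membrane and promote the bundling and growth of axons, and contactins are anchored like the IgLONs and act together with L1 proteins at contacts between axons and glia.

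All values are normalized counts, that is, reads on a gene divided by a size factor set for each library. Between 31900689 and 41632381 whole reads, recovered from the values, lay on genes in 14 of 16 libraries. SCG+PSC replicate 4 and PSC+SCG replicate 1 were left out of this range. The ganglion libraries held all 12 sympathetic neuron markers, with a summed count of 130877 to 275909, and all 7 glial markers, with 56358 to 74141 in SCG. They also held all 6 fibroblast markers (183932 to 381583 over the 3 groups), so each value is a mean over a mixed tissue. Fewer cells of a type and less RNA per cell cannot be told apart in such libraries. In mPSC1 cells, Th was at 0 in 5 of 6 libraries, Dbh at no more than 3.2 and Ptprc at 0 in every library, whereas Col1a1 reached 214481 to 339977. Other markers of these lists were present there, such as Hand2 (mean 751 in PSC) and Csf1r (mean 86.2 in PSC). The 12 neuron markers summed to 2041 to 2802 and the 6 macrophage markers to 205 to 330 in mPSC1 libraries.

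Ntm and Opcml are neighbours on chromosome 9 of GRCm39. Opcml occupies chr9:27702071-28837232 on the plus strand and Ntm chr9:28906045-29874437 on the minus strand, so the genes point toward each other with 68.8 kb between their ends. Negr1 lies at chr3:156267431-157022097 on the plus strand. The canonical Ntm transcript starts 551 kb inside the gene, and counts per gene do not say which start site was used. The 250 bases before the canonical starts of Ntm and Negr1, the pair of IgLON genes with the largest differences between ganglion groups, are given here 5′ to 3′ on the strand of each gene, read from GRCm39. Capitals mark GCGTG, the core that the aryl hydrocarbon receptor binds, and the GC box GGGCGG, each searched on both strands. The Ntm stretch is chr9:29323501-29323750 on the minus strand and the Negr1 stretch chr3:156267181-156267430 on the plus strand.
Ntm: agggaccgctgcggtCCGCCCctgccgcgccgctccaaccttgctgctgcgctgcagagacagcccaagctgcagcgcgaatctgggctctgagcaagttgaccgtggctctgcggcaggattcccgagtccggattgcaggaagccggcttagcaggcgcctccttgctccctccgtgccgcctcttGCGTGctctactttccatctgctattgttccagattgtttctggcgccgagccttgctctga
Negr1: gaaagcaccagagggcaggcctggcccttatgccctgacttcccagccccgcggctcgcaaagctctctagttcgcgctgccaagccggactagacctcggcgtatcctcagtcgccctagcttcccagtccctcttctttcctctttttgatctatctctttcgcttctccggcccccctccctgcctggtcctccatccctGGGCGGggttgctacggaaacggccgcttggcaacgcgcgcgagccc

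In the Ntm stretch, GCGTG began 62 bases and a reverse-strand GC box 235 bases before the start, and Negr1 had a GC box 47 bases before its start and no receptor core. The core was also in the same stretch of Opcml (129 bases before the start), Lsamp (72) and Ncam2 (105), and a GC box was in those of Ncam2 and L1cam. The Ntm and Negr1 stretches were each 63.6% G and C. GCGTG was present in 31.2% and GGGCGG in 36.4% of the 21621 protein-coding promoters of the same length. TGANTCA, bound by AP-1 and held by 6.17% of promoters, and TATAAA, held by 11.9%, were in the stretch of none of the 10 genes. The receptor core was searched because its target Cyp1a1 was among the 3 genes past the threshold in each comparison with SCG.

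Ntm counts were highest with stellate cells, intermediate with NIH 3T3 cells and lowest in ganglia alone. Neurotrimin is an IgLON that promotes or limits neurite outgrowth depending on the neuron. SCG replicates 1, 2 and 3 had 258, 355 and 138 normalized counts, SCG+MEF had 516, 794 and 399, and SCG+PSC had 818, 938 and 753. The fourth SCG+PSC library had 849. Every library of either coculture lay above every SCG library, whereas SCG+MEF replicate 2 lay above SCG+PSC replicate 3. These values chose the gene. The means were 250.4 ± 108 (SD, n = 3) in SCG, 570 ± 202 in SCG+MEF and 836 ± 93.6 in SCG+PSC. Ratios of means were 3.34 for SCG+PSC and 2.27 for SCG+MEF over SCG, and 1.47 for SCG+PSC over SCG+MEF. On the log2(count + 1) scale the differences were 1.83, 1.23 and 0.61. Within the same-numbered libraries, SCG+PSC exceeded SCG by 1.66, 1.40 and 2.44 and SCG+MEF exceeded SCG by 0.996, 1.16 and 1.52. The widest difference in both cocultures was that of replicate 3, whose ganglia alone had the lowest count. Among the 12134 protein-coding genes with a mean of at least 100 over the ganglion libraries, Ntm had the 18th highest log2 fold change in SCG+PSC and the 16th in SCG+MEF.

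**Figure D1:**
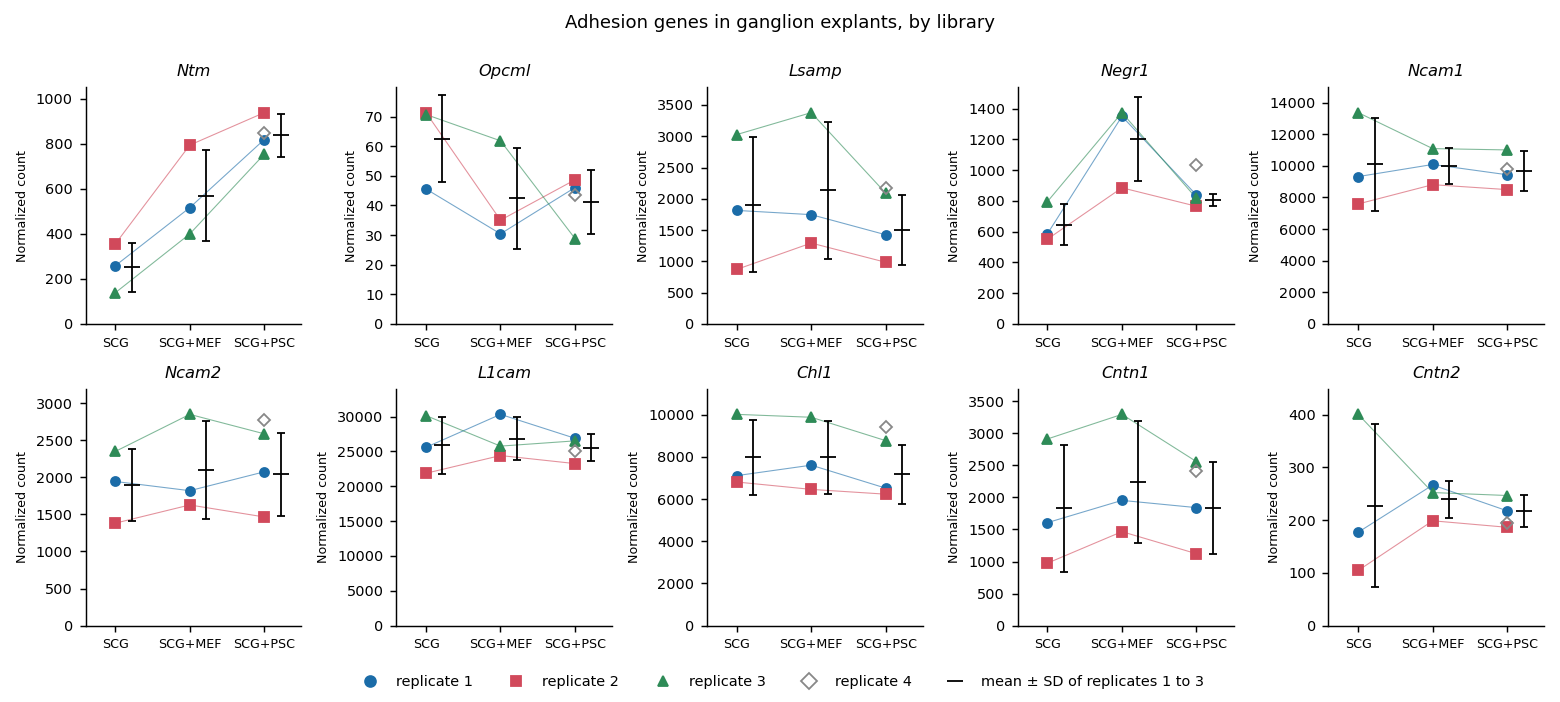
Normalized counts (vertical axes from 0) of the 10 genes in the 3 ganglion groups. Points are libraries, shaped and coloured by replicate number and joined within a number, the open diamond is SCG+PSC replicate 4, and black bars are the mean ± SD of replicates 1 to 3. Ntm is lowest in SCG and highest in SCG+PSC in all 3 numbers, Negr1 peaks in SCG+MEF, and Lsamp, Ncam1, Ncam2, Chl1 and Cntn1 are lowest in replicate 2 and, among replicates 1 to 3, highest in replicate 3 of each group.

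Negr1 counts were highest with NIH 3T3 cells. Negr1, also called Kilon, is an IgLON that supports neurite growth and synapse number. Its normalized counts were 587, 552 and 796 in SCG, 1350.45, 886 and 1374 in SCG+MEF, and 838, 765 and 817 in SCG+PSC, with 1036 in the fourth SCG+PSC library. The SCG+MEF libraries lay above all SCG libraries and above SCG+PSC replicates 1 to 3, though the lowest of them lay under the fourth. The mean was 1.87 times that of SCG, a log2 fold change of 0.89 (SE 0.19, 95% interval 0.46 to 1.32). Across all genes tested this did not pass the threshold of an adjusted p of 0.05 with a log2 fold change of 0.5 (adjusted p = 0.933, limma). With the replicate number as a block it did (adjusted p = 0.0139), as it did with DESeq2 and the block (adjusted p = 1.3e-07). Over the alternatives tried, the adjusted p ranged from 1.3e-07 to 1. SCG+PSC exceeded SCG by 0.34 (interval -0.09 to 0.77, or 0.068 to 0.61 with the block), which did not pass with or without the block.

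The difference between the cocultures was tested directly. Negr1 was lower in SCG+PSC than in SCG+MEF by a log2 fold change of -0.55 (interval -0.98 to -0.12), lower in 3 of 3 same-numbered pairs and without overlap of the groups. With all 4 SCG+PSC libraries it was -0.46, and the groups then overlapped. It did not pass with limma, either without the block (adjusted p = 1) or with it (adjusted p = 0.0678), and it passed with DESeq2 and the block (adjusted p = 0.0045, fold change -0.55). The SCG libraries do not enter the limma fold change without the block. They do enter its interval and p-values, because the 3 groups share 1 estimate of the spread. The means of Ntm and Negr1 stood in opposite order between the cocultures. The Ntm mean was higher with stellate cells, and the Negr1 mean was higher with NIH 3T3 cells. The Ntm counts of the cocultures overlapped and were not tested.

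For the remaining IgLONs the groups overlapped. Opcml, an IgLON studied as a tumor suppressor, was the lowest of the 10 genes, with 45.6, 71.3 and 70.7 normalized counts in SCG, 30.4, 35.0 and 61.8 in SCG+MEF and 46.0, 48.7 and 28.8 in SCG+PSC. Its log2 fold changes were -0.60 (interval -1.38 to 0.19) with stellate cells and -0.59 (interval -1.37 to 0.20) with NIH 3T3 cells, and the groups overlapped. Lsamp, the limbic system-associated IgLON, had 1814, 871 and 3027 in SCG, 1747, 1293 and 3377 in SCG+MEF and 1425, 985 and 2091 in SCG+PSC. The spread within each group was wider than any difference between groups, and the interval for SCG+PSC against SCG ran from -1.27 to 0.80 without the block and from -0.51 to 0.040 with it. SCG+PSC was below SCG+MEF in 3 of 3 pairs, by -0.46 on average. That difference had an adjusted p of 0.132 with limma and the block and of 0.0196 with DESeq2 and the block, where the fold change of -0.46 stayed under 0.5 in size. In a later annotation release than the authors', 27.3% of the Lsamp exon bases are shared with another gene on the same strand, which is not a row of these tables.

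Per kilobase of exon, Ntm took its largest share of the 4 IgLON genes above in SCG+PSC. The shares are built on the counts that chose Ntm. Its higher share in the cocultures follows in part from that choice and is described without a test. Dividing counts by union exon length, Ntm made up 12.5%, 24.3% and 4.59% of the summed level in SCG, 18.1%, 32.5% and 10.1% in SCG+MEF, and 32.3%, 41.2% and 25.7% in SCG+PSC, with 26.0% in the fourth. The mean shares were 13.8%, 20.2% and 33.04%. By this length Lsamp had the highest mean share, with 60.8% in SCG, 48.8% in SCG+MEF and 41.9% in SCG+PSC, and Opcml made up 1.69% or less on average. With the longest transcript as length the order changed: Lsamp led in SCG (47.1%), Negr1 in SCG+MEF (36.6%, with Lsamp at 34.9%) and Ntm in SCG+PSC (43.4%, with Lsamp at 28.1%). Iglon5, the other IgLON, is not among the 10 genes but had the highest level per kilobase of the family. With it counted, Ntm made up 3.25% in SCG, 6.42% in SCG+MEF and 9.68% in SCG+PSC, and Iglon5 66.4% to 74.4%.

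**Figure D2:**
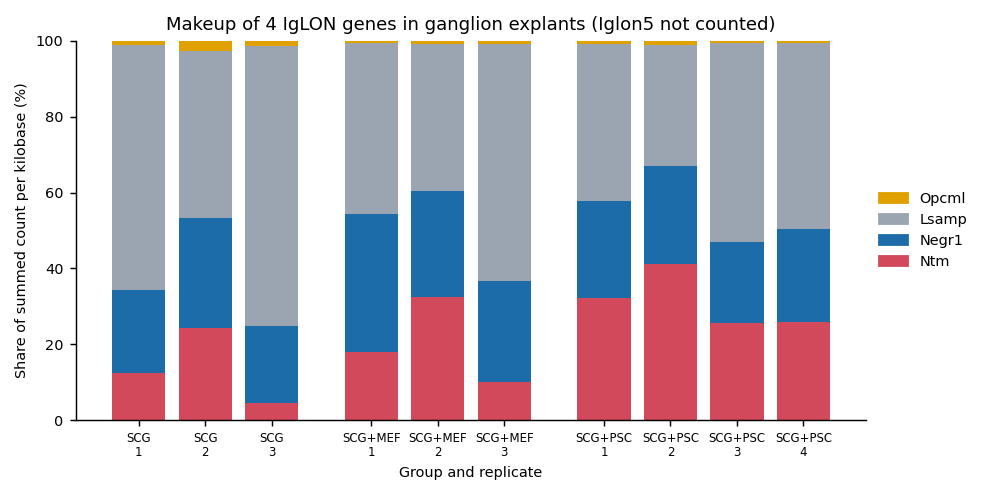
Share (%) of the summed normalized count per kilobase taken by Ntm, Negr1, Lsamp and Opcml in each ganglion library, with Iglon5 left out. Ntm, at the bottom of each bar, takes 4.59% to 24.3% in SCG and 25.7% to 41.2% in the 4 SCG+PSC libraries. The shares are built on the counts that chose Ntm.

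The NCAM genes did not differ between groups beyond their spread. Ncam1, the neural cell adhesion molecule that carries polysialic acid, had 9318, 7588 and 13363 normalized counts in SCG, 10085, 8807 and 11088 in SCG+MEF and 9433, 8495 and 11004 in SCG+PSC. The coculture libraries all lay inside the SCG range, and the 95% interval for SCG+PSC against SCG was -0.46 to 0.40 on the log2 scale. Ncam2, known for guiding olfactory axons, had 1943, 1381 and 2347 in SCG, 1819, 1627 and 2847 in SCG+MEF and 2073, 1465 and 2585 in SCG+PSC. Its intervals against SCG were -0.50 to 0.71 for SCG+PSC and -0.46 to 0.74 for SCG+MEF without the block, and -0.089 to 0.30 and -0.055 to 0.33 with it.

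L1cam had the highest count of the 10 genes and, without the block, the narrowest interval. With the block the interval of Chl1 was narrower. L1cam, which drives axon growth and bundling, had 25598, 21871 and 30145 normalized counts in SCG, 30324, 24415 and 25768 in SCG+MEF and 26891, 23261 and 26519 in SCG+PSC. The groups overlapped, and the intervals were -0.33 to 0.31 for SCG+PSC and -0.26 to 0.38 for SCG+MEF against SCG. Both lie within a log2 change of 0.5. Chl1, the close homolog of L1, had 7108, 6805 and 10010.4 in SCG, 7604, 6456 and 9873 in SCG+MEF and 6514, 6229 and 8765 in SCG+PSC. The fourth SCG+PSC library, at 9400.5, was above the other three. Chl1 was lower in SCG+PSC than in SCG in 3 of 3 pairs, with log2 differences of -0.13, -0.13 and -0.19, which did not pass with the block (adjusted p = 0.474).

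The ganglion groups overlapped for both contactins. Cntn1, which joins receptor complexes at the contacts of axons with myelinating glia, had 1607, 975 and 2912 normalized counts in SCG, 1954, 1466 and 3295 in SCG+MEF and 1841, 1122 and 2558 in SCG+PSC. SCG+MEF was above SCG in 3 of 3 pairs (log2 fold change 0.35). The interval was -0.60 to 1.29 without the block and 0.13 to 0.56 with it, and the difference did not pass with the block (adjusted p = 0.326). Cntn2, the transient axonal glycoprotein of growing axons, had 177, 105 and 401 in SCG, 267, 199 and 252 in SCG+MEF and 218, 187 and 247 in SCG+PSC. SCG held both its lowest and its highest library, and the coefficient of variation was 67.8% in SCG against 14.9% in SCG+MEF and 13.9% in SCG+PSC.

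Counted together, none of the 9 tested genes passed the threshold in a comparison of ganglia with limma and no block. In SCG+PSC against SCG, 4 of the 9 had a positive and 5 a negative fold change, with a median of -0.01. Of the genes tested, 23491 in all, 0.0128% passed without the block and 1.33% with it, and with DESeq2 and the block 1.78% of 23680 passed. In each of these fits 0 of the 9 passed. Without the block, none of the 9 had an unadjusted p under 0.05, as 943 of all genes did. With the block Negr1 did, as 2511 of all genes did. None lay wholly above SCG, where 4.24% of all genes did. In SCG+MEF against SCG, 8 of 9 fold changes were positive with a median of 0.14, and over the 15908 protein-coding genes tested 59.3% were positive with a median of 0.03. Negr1 alone of the 9 had an unadjusted p under 0.05 without the block, as 705 of all 23491 genes did. With the block Cntn1 joined it, where 1771 of all genes had such a p. Negr1 alone lay wholly above SCG, as 2.99% of all genes did. It was the 1 of 9 that passed with the block, where 0.162% of genes passed, and with DESeq2 and the block, where 0.452% passed. The share without the block was again 0.0128%.

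Between the cocultures all 9 fold changes of SCG+PSC against SCG+MEF were negative, with a median of -0.14. Over all protein-coding genes tested, 45.6% were positive and the median was -0.02. With limma 0% of all genes passed without the block, though 755 had an unadjusted p under 0.05, and DESeq2 without the block called 18. With the block 0.788% passed with limma, and 0 of the 9 did in either limma fit. Without the block 1 of the 9, Negr1, had an unadjusted p under 0.05. With it 3 did (Negr1, Lsamp and Cntn1), as 2750 of all 23491 genes did. Negr1 lay wholly below SCG+MEF, as 3.47% of all genes did. Negr1 also passed with DESeq2 and the block, where 1.57% of genes passed. The neuron marker sums of SCG+PSC were below those of SCG+MEF in replicates 1 and 2 and above in replicate 3, and their part in these fold changes was not tested.

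**Figure D3:**
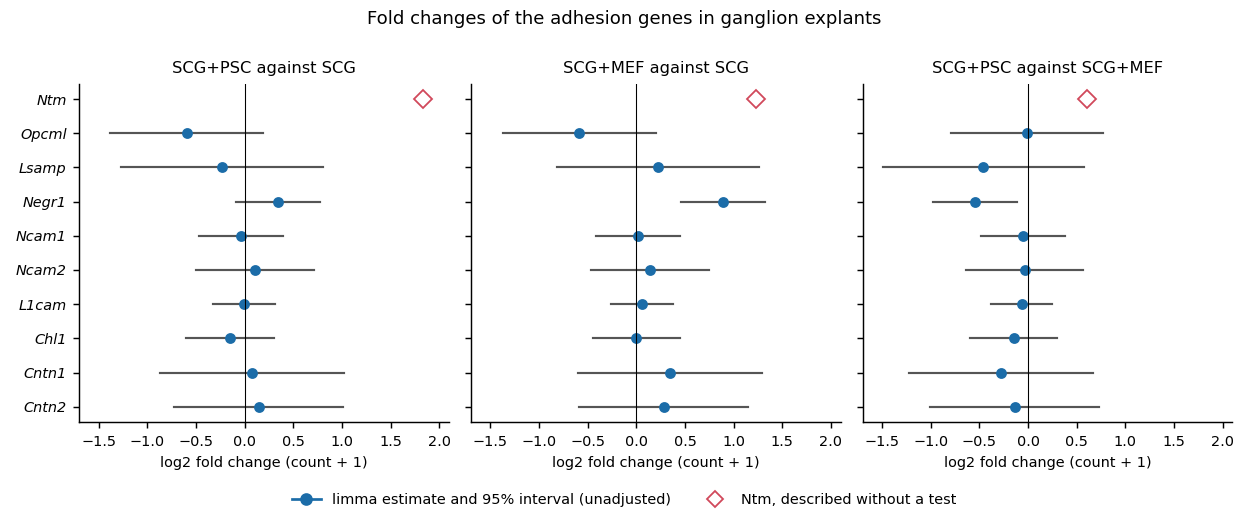
Log2 fold changes on the log2(count + 1) scale for the 10 genes in the 3 comparisons of ganglia. Circles and lines are limma estimates with unadjusted 95% intervals and no replicate block, and the open diamond is Ntm, described without a test. Negr1 in SCG+MEF against SCG (0.46 to 1.32) and in SCG+PSC against SCG+MEF (-0.98 to -0.12) has the only intervals drawn that leave out 0. With the block, so do those of Negr1 in SCG+PSC against SCG, Cntn1 in both comparisons with SCG+MEF and Lsamp in SCG+PSC against SCG+MEF.

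Compared per kilobase, the order of the genes was the same at the top in every group. In SCG, L1cam led with 3263 normalized counts per kilobase, followed by Ncam1 with 1147 and Chl1 with 566, and no library of one overlapped those of the next. Lsamp (173), Ncam2 (144), Cntn1 (107) and Negr1 (61.3) followed, each overlapping the next. Ntm (31.0) overlapped Cntn2 (23.5), and Opcml (4.16) was last. In SCG+MEF, Negr1 (114) and Ntm (70.5) kept 7th and 8th place and overlapped. In SCG+PSC, Ntm had 104 per kilobase, 7th, and it overlapped Cntn1 (108). It lay above Negr1 (76.7) without overlap in replicates 1 to 3, but Negr1 in the fourth library (98.5) was above Ntm in replicate 3 (93.2). With the longest transcript as length, L1cam, Ncam1 and Chl1 still led in every group, and Ntm was 6th in SCG+PSC.

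Within groups, Ntm and 5 of the other 9 adhesion genes stood in opposite order over replicates 1 to 3. In each of the 3 groups, replicate 2 had the highest Ntm count and replicate 3 the lowest. The same replicate 2 had the lowest summed count of the 12 neuron markers, at 130877 in SCG, 190783 in SCG+MEF and 151275 in SCG+PSC, and replicate 3 had the highest, at 275909, 263058 and 269676. Lsamp, Ncam1, Ncam2, Chl1 and Cntn1 followed the neuron markers, lowest in replicate 2 and, among replicates 1 to 3, highest in replicate 3 of all 3 groups. The fourth SCG+PSC library exceeded replicate 3 for Lsamp, Ncam2 and Chl1. Over the 10 ganglion libraries, deviations from the group mean on the log2 scale had Pearson r with the neuron marker sum of -0.81 for Ntm, against 0.70 to 0.93 for the 8 other genes besides Opcml (-0.21). With the sums of the other 5 marker lists, r for Ntm ran from 0.37 (endothelium) to 0.76 (stellate cell), with 0.48 for fibroblast and 0.58 for glial markers. These r describe libraries that share replicate numbers in groups of 3 and 4. The stellate cell list is not particular to mPSC1 cells here. It summed to 147287 to 217274 in ganglia cultured alone and to 144649 to 199761 in SCG+PSC. The part of tissue makeup in the Ntm difference was not tested.

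**Figure D4:**
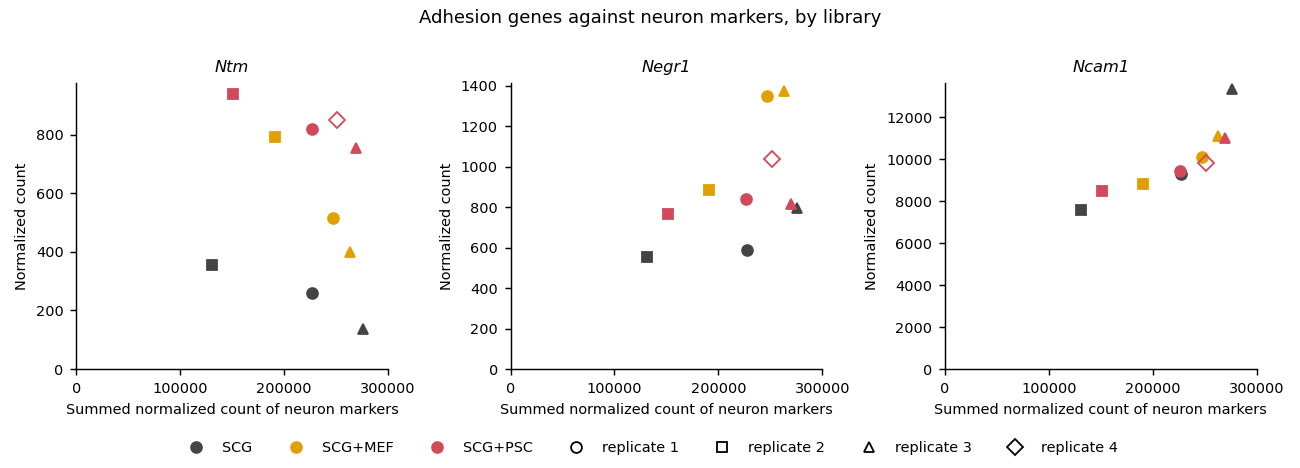
Normalized counts of Ntm, Negr1 and Ncam1 against the summed normalized count of 12 neuron markers in the 10 ganglion libraries. Colours are groups and shapes are replicate numbers, with SCG+PSC replicate 4 open. Over replicates 1 to 3 of a group Ntm is lower and Ncam1 higher where the marker sum is higher, whereas SCG+PSC replicate 4 has both a higher marker sum and more Ntm than replicate 1.

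The genes whose pattern was most like that of Ntm were not adhesion proteins of this group. Among 12134 protein-coding genes with a mean of at least 100, the highest Pearson r with Ntm over the 10 libraries were those of Krt80 (0.971), a keratin, Nfe2l2 (0.934), the regulator of antioxidant genes known as NRF2, Mrc1 (0.926), the mannose receptor of macrophages, Kdr (0.920), the VEGF receptor that is one of the 5 endothelial markers used, and Lrrc8d (0.919), a subunit of volume-regulated anion channels. Krt80 had 102, 115 and 77.9 normalized counts in SCG, and 182, 209 and 191 in SCG+PSC replicates 1 to 3. Of the adhesion genes, Negr1 had the highest r with Ntm over the libraries at 0.24, and Opcml the lowest at -0.60. Macrophage and endothelial markers summed to 3975 to 6217 and 3418 to 4333 in SCG and to 4403 to 5497 and 3930 to 4131 in SCG+PSC. Within the endothelial list the markers did not move together. Over replicates 1 to 3, mean Kdr was 181 in SCG and 295 in SCG+PSC, and mean Emcn was 2555 and 1834. The part of these markers in this likeness was not tested.

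Related genes from 3 lists were counted in the same fits. Of 7 further members of these families (Iglon5, Nrcam, Nfasc and Cntn3 to Cntn6), none passed in either direction in a ganglion comparison, with or without the block. Nrcam, an L1 family member of axons, had the lowest p of the 7 in both comparisons that involve NIH 3T3 cells. Its log2 fold changes were -0.43 in SCG+PSC against SCG+MEF and 0.33 in SCG+MEF against SCG, with no overlap of groups in either. Of all 23491 genes, 3.47% lay wholly lower in the former comparison and 2.99% wholly higher in the latter. Nrcam had 5933, 7509 and 7519 normalized counts in SCG and 9177, 7760 and 9346 in SCG+MEF. It had 6582, 6629 and 6275 in SCG+PSC, with 6508 in replicate 4, also below every SCG+MEF library. Like Negr1, Nrcam was highest with NIH 3T3 cells, but it was picked from the 7 by its p. Of 20 other immunoglobulin adhesion genes none passed. Cadm4, which links axons and Schwann cells, had the lowest p in SCG+PSC against SCG (log2 fold change 0.49). Of 14 partners and modifying enzymes none passed, and St8sia2, which builds polysialic acid on NCAM, had the lowest p in SCG+PSC against SCG (log2 fold change 0.45).

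In mPSC1 cells Ncam1 had the highest level of the 10 genes, both as a count and per kilobase, with 2412, 1987 and 1674 normalized counts in PSC and 2648, 2366 and 2112 in PSC+SCG. It was higher with ganglia in 3 of 3 pairs, by a log2 fold change of 0.24 (interval -0.13 to 0.61, or 0.028 to 0.45 with the block). This did not pass (adjusted p = 0.477 with the block). Negr1 followed with 296, 188 and 192 in PSC and 313, 257 and 191 in PSC+SCG, a difference smaller than the spread between libraries. Chl1 had 69.3, 22.7 and 7.71 in PSC and 134, 77.0 and 21.3 in PSC+SCG. It was higher with ganglia in 3 of 3 pairs, with a log2 fold change of 1.34 (SE 0.85, interval -0.59 to 3.27, or 0.69 to 1.99 with the block). The groups overlapped, because replicate 1 was the highest and replicate 3 the lowest in both. Chl1 did not pass without the block (adjusted p = 1) or with it (adjusted p = 0.0566). It passed where each replicate 3 library had a block to itself (fold change 1.33, adjusted p = 0.0283). That fold change rests on replicates 1 and 2 alone, with log2 differences of 0.95 and 1.72.

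**Figure D5:**
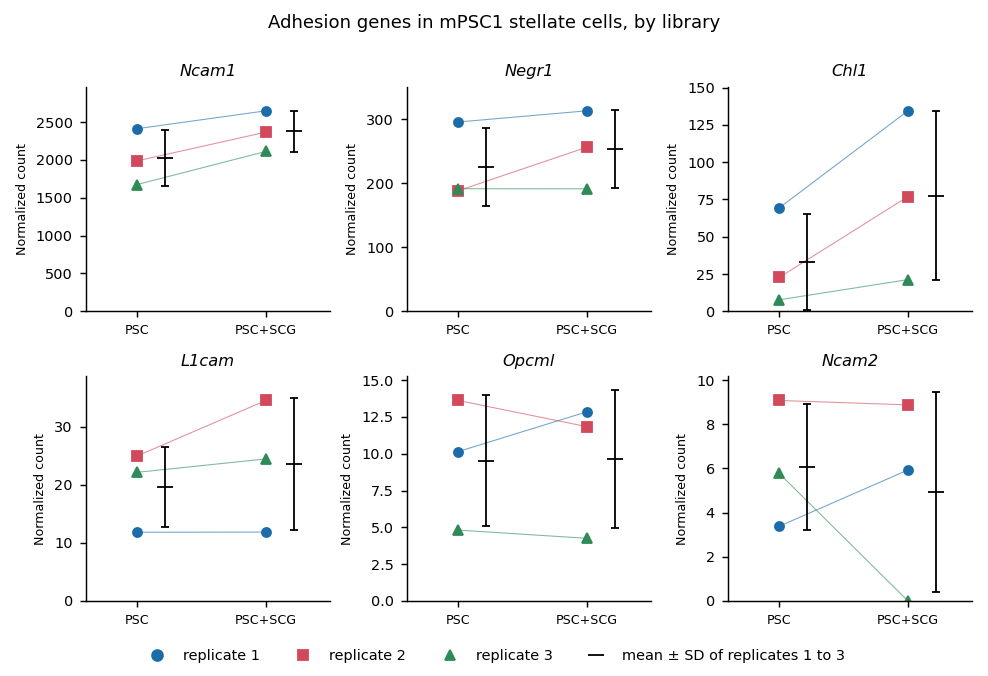
Normalized counts (vertical axes from 0) of the 6 adhesion genes tested in mPSC1 cells cultured alone (PSC) and with ganglia (PSC+SCG). Points are libraries joined by replicate number, and black bars are the mean ± SD. Ncam1 and Chl1 are higher with ganglia in all 3 numbers, and the groups overlap in every panel.

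Apart from Ncam1, Negr1 and Chl1, the 10 genes were low or at 0 in the stellate line. L1cam had 11.8 to 25.0 normalized counts in PSC and 11.9 to 34.5 in PSC+SCG, Opcml 4.82 to 13.6 and 4.26 to 12.9, and Ncam2 3.38 to 9.08 and 0 to 8.88. Ntm was at 0 in all PSC libraries and at 0.99, 0 and 1.06 in PSC+SCG, about 1 read in each of 2 libraries, and Lsamp was at 0 in all 6. Cntn1 was at no more than 2.27 and Cntn2 at no more than 5.93. With these 4 genes under the least sum of 10, 6 of the 10 genes were tested. None of the 6 passed with limma, nor did any of the 21273 genes (0%), of which 408 had an unadjusted p under 0.05 without the block, none of them among the 6. With the block 0.461% of genes and 0 of the 6 passed, and with each replicate 3 library in its own block 2.30% of genes and 1 of the 6. The median fold change of the 6 was 0.19, against 0.01 over all 14541 protein-coding genes tested. Among the related genes none passed, and Tnr, the matrix ligand of contactins, had the lowest p of the partners (log2 fold change 1.31), with 6.8, 25.0 and 5.8 in PSC and 36.6, 29.6 and 17.0 in PSC+SCG.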

How the data were processed

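Poly(A) RNA of 10 ganglion and 6 mPSC1 libraries was sequenced with a stranded kit. The authors aligned reads to GRCm39 with STAR 2.7.10b, counted them by strand on GENCODE genes, and deposited, for each table apart, counts divided by DESeq2 1.38.3 size factors (R 4.2.2). These normalized counts are, as deposited by the authors, a signal scaled for library size and without a length correction, so levels of different genes are compared only per kilobase of union exon length, taken from GENCODE M39. Groups and replicate numbers came from the labels. The study's model used batch dates, which the sources used here do not tie to libraries.

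Genes summing to at least 10 in a table's tested libraries were fitted with limma 3.58.1 (R 4.3.3), with an intensity trend, on log2(count + 1), and Benjamini-Hochberg adjusted p-values were taken over all genes tested. Genes were called at an adjusted p up to 0.05 where the log2 fold change also reached 0.5 in size. In all 16 libraries every count above 0 was a whole multiple of the smallest (tolerance 0.001), which gave whole reads. Read totals are given for 14 of them, without SCG+PSC replicate 4 and PSC+SCG replicate 1. The recovered reads were used for edgeR 4.0.16 and DESeq2 1.42.0 in ganglia, without SCG+PSC replicate 4. Related genes named are those of each list with the lowest p in a comparison, and a result this rule also selected is not reported here. The scripts were tested on simulated data.

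Same-numbered libraries deviated together from their group means, with r across 12859 genes of 0.39 to 0.78 in the 9 ganglion pairs, and across 11666 genes of 0.54 to 0.83 in the 3 mPSC1 pairs. The replicate number was therefore also fitted as a block, and values with it stand beside the results whose call it changes. Ntm, the members and the lists were chosen with earlier results of these data known. No column of the authors' own comparisons was used, and protein sequences were not used here.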

Additional observations from a re-analysis of the deposited data

Results flagged for a closer look

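The fourth SCG+PSC library, which entered none of the main comparisons, had more Ntm (849 normalized counts), Negr1 (1036) and Ncam2 (2771) than the highest of the 3 SCG libraries (355, 796 and 2347). For Ntm this is the pattern of SCG+PSC replicates 1 to 3, all of which were above SCG as well. For Negr1, replicates 1 and 3 at 838 and 817 were above the highest SCG library and replicate 2 at 765 was not. For Ncam2, replicate 3 at 2585 was above it and the others were not. Over the 4 SCG+PSC libraries no gene of the 10 had a library far from the others by Dixon's test, which flags about 1 in 20 groups by chance.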

How the results depend on the processing

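Of 803 refits of the 36 log2 fold changes under an alternative, 736 kept their direction and their side of the threshold or, for Ntm, moved by less than 1 SD between replicates. Another 7 moved past the threshold and 60 changed sign. No tested fold change had passed in the main fit, so a kept side of the threshold means only that it still did not pass. Ntm was positive under every alternative in all 3 comparisons of ganglia. It was chosen by its values in these libraries, so this is a description and no test. Leaving out 1 library could not reverse its comparisons with SCG, because those groups did not overlap. The replicate block changed the number of the 9 genes past the threshold from 0 to 1 in SCG+MEF against SCG, as did the block with replicates 3 apart, edgeR with the block, DESeq2, and DESeq2 with the block, which was added after the data were seen. In each case the gene was Negr1. DESeq2 with the block also moved SCG+PSC against SCG+MEF from 0 to 1 (Negr1), and the block with replicates 3 apart PSC+SCG against PSC from 0 to 1 (Chl1). The block changed no other call. Ntm's share of the 4 IgLON genes in SCG+PSC moved to 43.4% with the longest transcript as length, which put it above Lsamp. Without 1 library at a time, the fold changes that changed sign ran in SCG+PSC against SCG for Lsamp from -0.71 to 0.19, Ncam1 from -0.22 to 0.19, Ncam2 from -0.10 to 0.33, L1cam from -0.12 to 0.11, Chl1 from -0.30 to 0.027, Cntn1 from -0.31 to 0.48 and Cntn2 from -0.30 to 0.66. In SCG+MEF against SCG they ran for Lsamp from -0.25 to 0.65, Ncam1 from -0.17 to 0.24, Ncam2 from -0.10 to 0.31, L1cam from -0.056 to 0.18, Chl1 from -0.16 to 0.18, Cntn1 from -0.033 to 0.76 and Cntn2 from -0.17 to 0.80. In SCG+PSC against SCG+MEF they ran for Opcml from -0.21 to 0.29, Ncam1 from -0.15 to 0.034, Ncam2 from -0.22 to 0.21, L1cam from -0.13 to 0.024, Chl1 from -0.30 to 0.016 and Cntn1 from -0.56 to 0.042. In PSC+SCG against PSC they ran for Opcml from -0.38 to 0.44, Ncam2 from -1.35 to 0.31 and L1cam from -0.13 to 0.61. Under other settings, sign changes took in SCG+PSC against SCG Ncam1 to 0.018 with replicates 3 apart in the block, L1cam to 0.0087 with replicates 3 apart in the block and Cntn2 to -0.057 with edgeR and -0.067 with DESeq2. In SCG+MEF against SCG they took Ncam1 to -0.011 with edgeR and -0.014 with DESeq2 and Chl1 to -0.0066 with quantile normalization. In SCG+PSC against SCG+MEF they took Opcml to 0.42 with replicates 3 apart in the block, 0.017 with all 4 SCG+PSC libraries, 0.18 with SCG+PSC replicates 1, 2 and 4, 0.0090 with edgeR and the block and 0.010 with DESeq2 and the block, Ncam2 to 0.086 with all 4 SCG+PSC libraries and Cntn2 to 0.045 with replicates 3 apart in the block. In PSC+SCG against PSC they took Opcml to 0.063 with replicates 3 apart in the block, 0.0040 with a pseudocount of 8 and 0.076 with quantile normalization and Ncam2 to 0.32 with replicates 3 apart in the block. Their causes were not tested. Over all genes, the block moved the number past the threshold from 3 to 313 in SCG+PSC against SCG, from 3 to 38 in SCG+MEF against SCG, from 0 to 185 between the cocultures and from 0 to 98 in mPSC1 cells. With 3 libraries a group, the 95% interval of Lsamp in SCG+PSC against SCG spanned -1.27 to 0.80, and -0.51 to 0.040 with the block.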
